A study of Mus musculus with 44 samples.

Results

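Mouse small intestine organoids were compared, gene by gene, with mouse gastric organoid lines that express HNF4A. The question was which intestinal genes the HNF4A lines still lacked and which gastric genes they still carried. The comparison took every RNA library of those 2 kinds, which is 2 small intestine libraries and 3 HNF4A libraries, or 5 of the 20 RNA libraries with counts and of the 44 samples of the series. It was made for the 12720 of 19733 gene symbols that passed a filter on low counts. The HNF4A lines were gastric organoids of strain C57BL/6 carrying a lentivirus for HNF4A, with 1 library from each of lines 1, 2 and 3, which the study calls isogenic. The small intestine organoids were of the same strain, with 1 library from each of lines 1 and 2 and no transgene named. Gastric organoids of that strain transduced with GFP, a neutral product, or with CDX2 gave 3 libraries each and are shown for reference. The labels used here do not give the promoter that drives HNF4A, the species of its sequence, the stomach region of these lines, or the age or sex of the donor mice. One label field calls all the gastric lines small intestine organoids, while their titles and their tissue field say gastric, and the latter were followed. The stomach genes Cldn18 and Muc1 read well over 100 CPM in each HNF4A library and at most 1.43 CPM in each small intestine library, while other stomach genes, given below, varied between libraries.

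HNF4A is a nuclear receptor that binds DNA at enterocyte genes and, in the liver, at genes of plasma proteins. CDX2 and its relative CDX1 are homeobox factors of the intestinal epithelium that the healthy adult stomach lacks, while SOX2 marks the stomach and foregut. Intestinal metaplasia is the appearance of intestinal cell types in the stomach lining, and it can precede gastric cancer.

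The 5 libraries held 6926300 to 11007809 counts. Levels below are counts scaled to a common normalised library size (CPM), listed for small intestine lines 1 and 2 and then for HNF4A lines 1, 2 and 3. They compare libraries for the same gene and are not corrected for gene length. Nothing in the labels says that lines came from separate mice, so the tests measure only the spread between these libraries. The small intestine libraries differed from each other at single genes: Olfm4, a stem cell marker, stood at 0.279 and 76.9 CPM, and Clu, a marker of regenerating epithelium, at 83.4 and 1533 CPM. Of 10188 genes averaging at least 5 CPM over that pair, 196 (1.92%) were at least 4-fold apart. Between pairs of HNF4A lines the share ran from 0.607% for lines 1 and 2 to 3.48% for lines 1 and 3.

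Small intestine and HNF4A organoids were told apart by 1585 genes, at an adjusted p under 0.05 in edgeR's quasi-likelihood test with Benjamini-Hochberg adjustment, which is 12.5% of those tested. The small intestine was higher at 741 of them (5.83%) and lower at 844 (6.64%), and 587 (4.61%) differed at least 4-fold. The shares called higher and lower are the background for the counts by gene list below. The balance turned with limma-voom, which called 789 higher and 623 lower. Both small intestine libraries lay above all 3 HNF4A libraries at 3248 genes (25.5%) and below all of them at 3093 (24.3%), 49.9% together. In the plot of fold change by level, Muc1, Muc6, Trf and Spp1 lie far down on the lower side at high levels. Among genes called higher, 47 averaged under 1 CPM in the HNF4A lines, and among genes called lower, 245 averaged under 1 CPM in the small intestine. The number of calls rested on single libraries. It fell to 142 without small intestine line 1, 344 without HNF4A line 2 and 524 without HNF4A line 3, and it was 559 with the 5 libraries fitted alone. Over 13 other settings that kept the same threshold, 109 genes were called in every setting that gave them an adjusted p. In the main fit, 22 of these were higher and 87 lower in the small intestine.

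**Figure D1:**
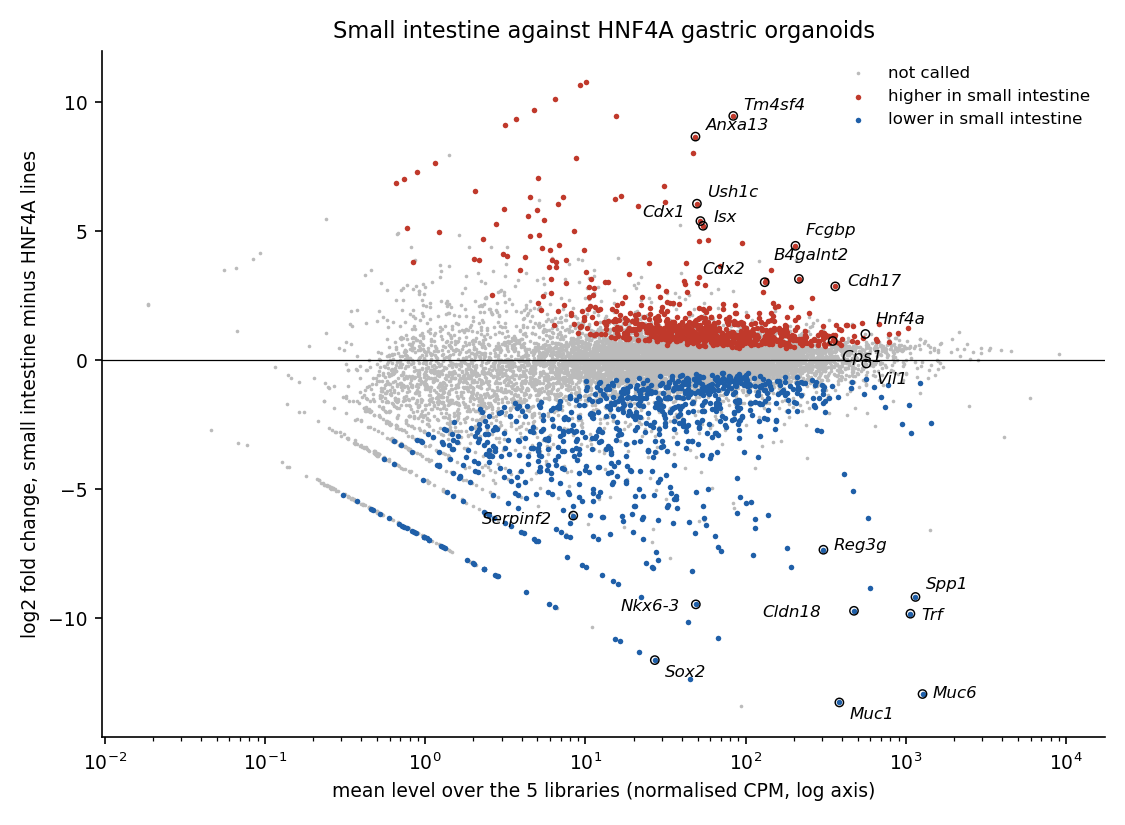
Log2 fold change of small intestine against HNF4A lines (vertical axis) by mean level over the 5 libraries in normalised CPM (horizontal log axis), 1 point per tested gene, coloured by its call at an adjusted p under 0.05. Muc1 and Muc6 lie at the bottom right with fold changes of -13.27 and -12.94, Tm4sf4 is near the top with 9.47, and Hnf4a itself at 1.01 is not called.

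Hnf4a reads stood at 717 and 885 CPM in the small intestine and at 502, 399 and 289 CPM in the HNF4A lines. Both intestinal values lay above the 3 others, but the difference of 1.01 ± 0.39 (log2, SE) did not pass the test (edgeR adjusted p = 0.110), with a 95% interval from 0.15 to 1.88. The counts do not separate transgene from native transcripts. In the GFP lines Hnf4a stood at 129 ± 31.4 CPM (SD, n = 3), and the difference between HNF4A and GFP lines was 1.63 ± 0.36 (edgeR adjusted p = 0.166, or 0.0268 with line number as a block). In bulk RNA, fewer cells of a type and less RNA per cell cannot be told apart, which holds for every level given here.

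Several homeobox and other factors of the intestine were lower in the HNF4A lines. Of 23 tested intestinal transcription factors, 6 were higher in the small intestine and none lower, with a median log2 difference of 0.96 against -0.0293 over all tested genes. Cdx2 stood at 282 and 272 CPM in the small intestine and at 50.6, 29.1 and 22.6 CPM in the HNF4A lines, so that no HNF4A library came near the intestinal level. The difference was 3.02 ± 0.57 (log2, SE), or 8.11-fold (edgeR adjusted p = 0.0155). Cdx2 lies at chr5:147300900-147307249 (RefSeq, GRCm38.p6). Its level in the GFP lines was 4.86 ± 2.27 CPM (SD, n = 3), so the HNF4A lines sat between the gastric and intestinal levels. The gap between HNF4A and GFP lines passed the test only with line number as a block (edgeR adjusted p = 0.0260, against 0.113 without). Cdx1 read 78.4 and 174 CPM against 2.32, 6.23 and 0.272 CPM, a difference of 5.39 ± 1.12 (edgeR adjusted p = 0.0251). Isx, the homeobox factor through which intestinal cells limit vitamin A uptake, read 125 and 136 CPM against 4.41, 4.64 and 1.36 CPM. That gap of 5.21 ± 0.61 (edgeR adjusted p = 0.00378) was called in 13 of 13 other settings, and no Isx count was found in the GFP lines.

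Vdr, the vitamin D receptor, read 95 and 96.3 CPM against 11.4, 2.94 and 6.94 CPM (3.75 ± 0.90, edgeR adjusted p = 0.0293). Nr5a2, a nuclear receptor of the crypt and pancreas, read 8.10 and 5.27 CPM against 0.348, 0.113 and 0 CPM. Osr2, a zinc finger factor, had 20.7 and 11.4 CPM in the small intestine and no count in any HNF4A library, which makes it at least 136-fold higher against 3 counts over the group. The GFP and CDX2 lines held no Osr2 count either. Tbx3, a T-box factor, read 91.0 and 61.2 CPM against 0.929, 0 and 1.22 CPM. Among these 4 genes, Tbx3 was called in 12 of 13 other settings, and Vdr in 9. In the intestinal factor list, 1 of 6 calls was left without small intestine line 1, and likewise 1 without HNF4A line 2.

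Several factors shared by stomach and intestine showed no such gap. Elf3 read 488 and 636 CPM in the small intestine and 476, 890 and 544 CPM in the HNF4A lines (edgeR adjusted p = 0.801). Klf5 read 194 and 331 CPM against 346, 269 and 229 CPM (edgeR adjusted p = 0.873), so for both genes the libraries of the 2 groups interleaved. Hnf4g, the paralog of Hnf4a that is typical of enterocytes, read 23.2 and 46.6 CPM against 16.3, 12.7 and 20.3 CPM, without overlap and without passing the test (edgeR adjusted p = 0.0757).

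**Figure D2:**
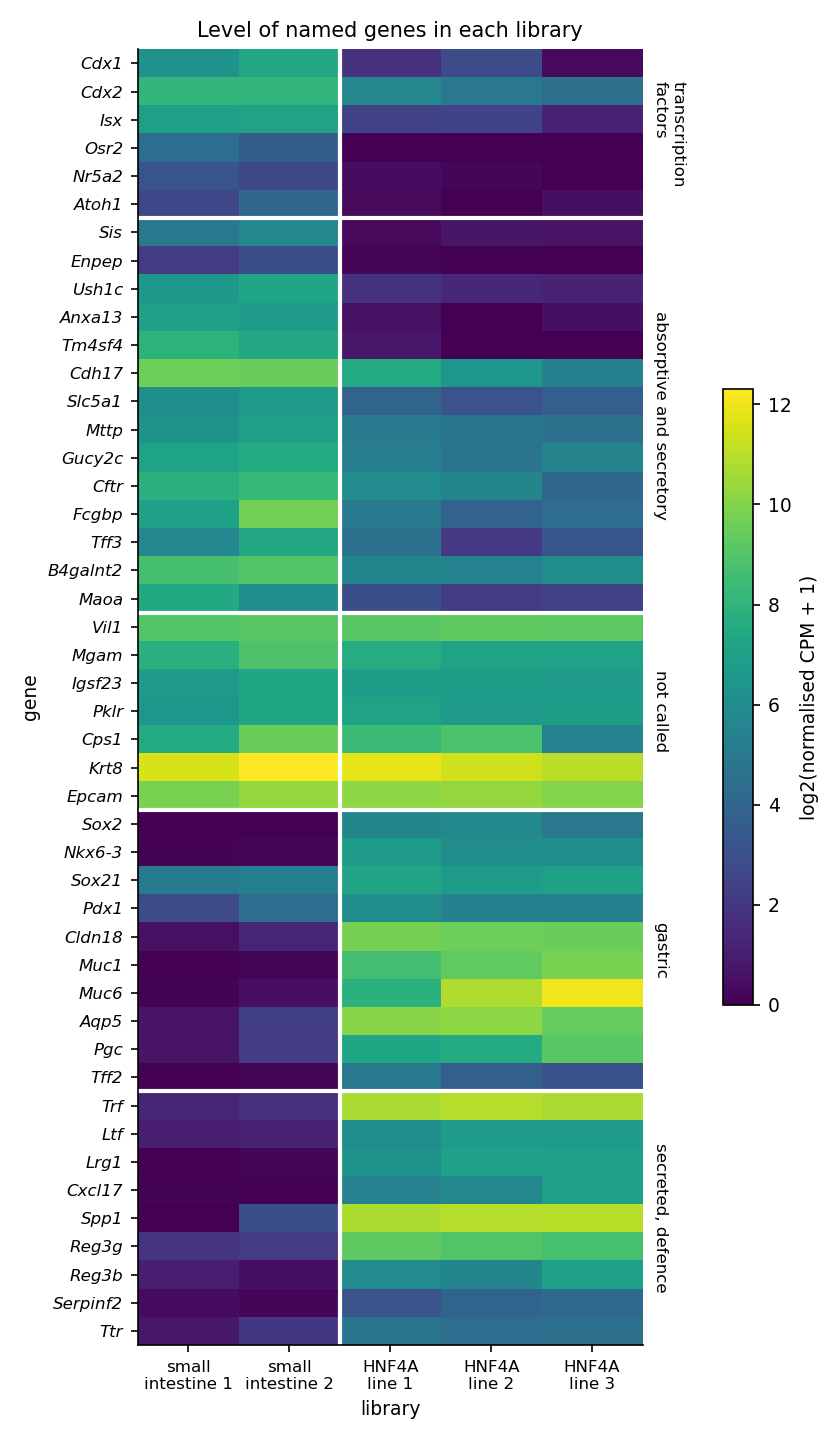
Level of named genes in the 2 small intestine and 3 HNF4A libraries, as log2 of normalised CPM plus 1, grouped by role. Osr2 is at 0 in all 3 HNF4A columns, Vil1 and Epcam are alike in all 5, and Sox2, Cldn18 and Muc1 are dark in both small intestine columns.

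Most absorptive cell genes were not called, like most tested genes, of which 12.5% were called. A few genes of adhesion, digestion and transport were far lower in the HNF4A lines. Among 19 tested brush border genes, 2 were higher in the small intestine and 2 lower, beside 5.83% and 6.64% of all genes. The median difference of that list was 0.40. Vil1, the actin bundler villin, read 494 and 576 CPM against 568, 611 and 578 CPM, a difference of -0.13 with a 95% interval from -0.56 to 0.30 (edgeR adjusted p = 0.676). Ush1c, which encodes harmonin, the scaffold that links the tips of microvilli, read 94.4 and 148 CPM against 2.44, 1.70 and 1.22 CPM. That is 66.9-fold (6.06 ± 1.02, edgeR adjusted p = 0.00924), with every intestinal library far above every HNF4A library. Cdh17, the intestinal cadherin, read 773 and 727 CPM against 182, 86.4 and 41.6 CPM (2.86 ± 0.67, edgeR adjusted p = 0.0273). The GFP lines held 3.24 ± 1.39 CPM of Cdh17 (SD, n = 3), below the HNF4A lines by 5.00 ± 0.73 (edgeR adjusted p = 0.0368). The brush border genes called lower were Mal, a sorting protein of the apical membrane, at 8.94 and 28.5 against 148, 77.2 and 111 CPM, and Eps8l2, at 152 and 210 against 301, 318 and 307 CPM. In that list, 1 of the 2 higher calls and neither lower call remained without small intestine line 1.

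Of 16 tested digestive hydrolases, 2 were higher and 1 lower in the small intestine, beside 5.83% and 6.64% of all genes. Sis, sucrase-isomaltase, a marker of intestinal metaplasia, read 30.4 and 51.1 CPM in the small intestine and 0.232, 0.679 and 0.544 CPM in the HNF4A lines. The difference was 6.35 ± 1.18 (edgeR adjusted p = 0.0189), and no GFP library held a Sis count. Its sister enzyme Mgam, maltase-glucoamylase, read 221 and 471 CPM against 195, 135 and 133 CPM, which did not pass the test (1.17 ± 0.36, edgeR adjusted p = 0.0607). Enpep, an aminopeptidase, was low everywhere, at 3.35 and 6.80 CPM against 0.116, 0 and 0 CPM. Ace, the angiotensin-converting enzyme, was lower in the small intestine, at 12.3 and 11.7 CPM against 47.6, 37.7 and 29.2 CPM. Alkaline phosphatase Akp3 could not be placed, since it ran from 0 to 147 CPM among the HNF4A lines and stood at 17.8 and 138 CPM in the small intestine. No hydrolase call was left without small intestine line 1 or without HNF4A line 2.

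Of 19 tested lipid and sterol genes, 4 were higher in the small intestine and none lower, beside 5.83% and 6.64% of all genes. Mttp, the transfer protein that loads fat onto apolipoprotein B, read 76.3 and 123 CPM against 31.8, 26.6 and 23.5 CPM (1.87 ± 0.33, edgeR adjusted p = 0.0111) and was called in 13 of 13 other settings. Abcg5 and Abcg8, the paired sterol exporters, averaged 27.8 and 22.1 CPM in the small intestine, and read between 2.04 and 5.23 CPM in the HNF4A lines. Acsl5, which activates fatty acids, was the mildest of the 4, at 566 and 426 CPM against 312, 248 and 191 CPM. Apob itself leaned the other way, at 82.6 and 315 CPM in the small intestine and 826, 636 and 986 CPM in the HNF4A lines. The groups did not overlap, but the difference of -2.04 ± 0.70 was not called (edgeR adjusted p = 0.0825). In the GFP lines Apob stood at 62.7 ± 36.1 CPM (SD, n = 3), which the HNF4A lines exceeded by 3.70 ± 0.65 (edgeR adjusted p = 0.0711, or 0.0316 with line number as a block). Of the 4 higher calls, 1 was left without small intestine line 1 and 1 without HNF4A line 2.

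Slc5a1, the sodium-glucose transporter of enterocytes, was the 1 gene called higher in the small intestine of 17 tested nutrient transporters. Another 2 were called lower, beside 5.83% of all genes called higher and 6.64% called lower. Slc5a1 read 69.0 and 105 CPM against 14.2, 7.81 and 11.8 CPM (2.95 ± 0.56, edgeR adjusted p = 0.0155). Slc9a3, a sodium-proton exchanger, was far lower there, at 2.42 and 4.72 CPM against 129, 216 and 335 CPM, and in the GFP lines it stood at 333 ± 37.7 CPM (SD, n = 3). Slc1a1, a glutamate transporter, was lower as well, at 4.66 and 19.3 CPM against 58.1, 40.0 and 45.6 CPM. None of these 3 calls remained without small intestine line 1.

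Guanylin signalling, in which the receptor guanylate cyclase C raises cGMP to drive chloride secretion, had 4 of 8 tested genes higher in the small intestine and 1 lower, with a median difference of 2.39. Gucy2c, the receptor, read 138 and 180 CPM against 37.6, 25.6 and 44.8 CPM (2.14 ± 0.49, edgeR adjusted p = 0.0251). In the GFP lines it read 0, 0.213 and 0 CPM, so the HNF4A lines held it well above the gastric level (8.67 ± 0.80, edgeR adjusted p = 0.00233) and still below the intestinal one. Prkg2, the kinase that cGMP activates, read 75.3 and 54.4 CPM against 12.7, 8.94 and 8.57 CPM. It averaged 0.0711 CPM in the GFP lines, below the HNF4A lines by 6.84 ± 0.91 (edgeR adjusted p = 0.0284). Cftr, the chloride channel at the end of the pathway, read 220 and 298 CPM against 59.9, 47.7 and 15.6 CPM. Its GFP level of 39.7 ± 21.3 CPM (SD, n = 3) was not told apart from the HNF4A lines (0.05 ± 0.57). The ligand Guca2a read 9.12 and 17.3 CPM against 0.116, 0 and 0.816 CPM. The gene called lower was Slc9a3, described above. None of these 4 higher calls remained without small intestine line 1 or HNF4A line 2.

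Of 17 tested goblet cell genes, 3 were called higher in the small intestine and 1 lower, beside 5.83% and 6.64% of all genes. Fcgbp, a protein of the mucus gel, read 131 and 824 CPM against 32.3, 13.9 and 20.1 CPM (4.43 ± 0.75, edgeR adjusted p = 0.00976) and was called in 13 of 13 other settings. Atoh1, the master factor of secretory cells, read 5.21 and 16.1 CPM against 0.232, 0 and 0.408 CPM. Tff3, the intestinal trefoil peptide, read 51.2 and 168 CPM against 22.9, 3.17 and 8.84 CPM. All 3 were higher in small intestine line 2 than in line 1. Muc2, the gel-forming mucin of goblet cells, was not called, because line 1 at 5.96 CPM fell among the HNF4A lines at 1.39, 5.32 and 7.07 CPM while line 2 reached 55.1 CPM. Spdef, a factor of goblet and gastric mucous neck cells, was lower in the small intestine, at 2.14 and 10.6 CPM against 24.2, 58.0 and 92.4 CPM. Of the 3 higher calls, 1 was left without small intestine line 1.

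B4galnt2, which adds the terminal sugar of the Sd(a) antigen on intestinal mucins, had a level in the HNF4A lines between those of the GFP and the other lines. It read 410 and 509 CPM in the small intestine and 49.0, 42.3 and 63.8 CPM in the HNF4A lines, which is 8.88-fold (3.15 ± 0.26, edgeR adjusted p = 0.000315). The CDX2 lines stood at 279 ± 31.7 CPM, and the GFP lines lay at 2.22 ± 0.783 CPM (SD, n = 3 each). HNF4A over GFP lines passed the test (edgeR adjusted p = 0.000215), as did CDX2 over HNF4A lines (edgeR adjusted p = 0.0185), a contrast in which 0.0157% of genes were called higher. Between small intestine and CDX2 lines the difference was 0.72 ± 0.25 and was not called (edgeR adjusted p = 0.0915). Anxa13, an annexin of the apical membrane, read 133 and 109 CPM against 0.465, 0 and 0.408 CPM (8.66 ± 0.79, edgeR adjusted p = 0.000512). Tm4sf4, a tetraspan membrane protein, read 248 and 169 CPM against 0.813, 0 and 0 CPM, and Gpr128, an adhesion receptor of the intestine, read 86.2 and 148 CPM against 0.581, 0.679 and 0 CPM. For these 3 genes the HNF4A lines were no more than 0.813 CPM. Maoa, monoamine oxidase A, read 175 and 67.1 CPM against 6.85, 3.62 and 4.22 CPM. B4galnt2, Anxa13, Gpr128 and Maoa were each called in 13 of 13 other settings, and Tm4sf4 in 9 of the 12 that gave it an adjusted p.

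**Figure D3:**
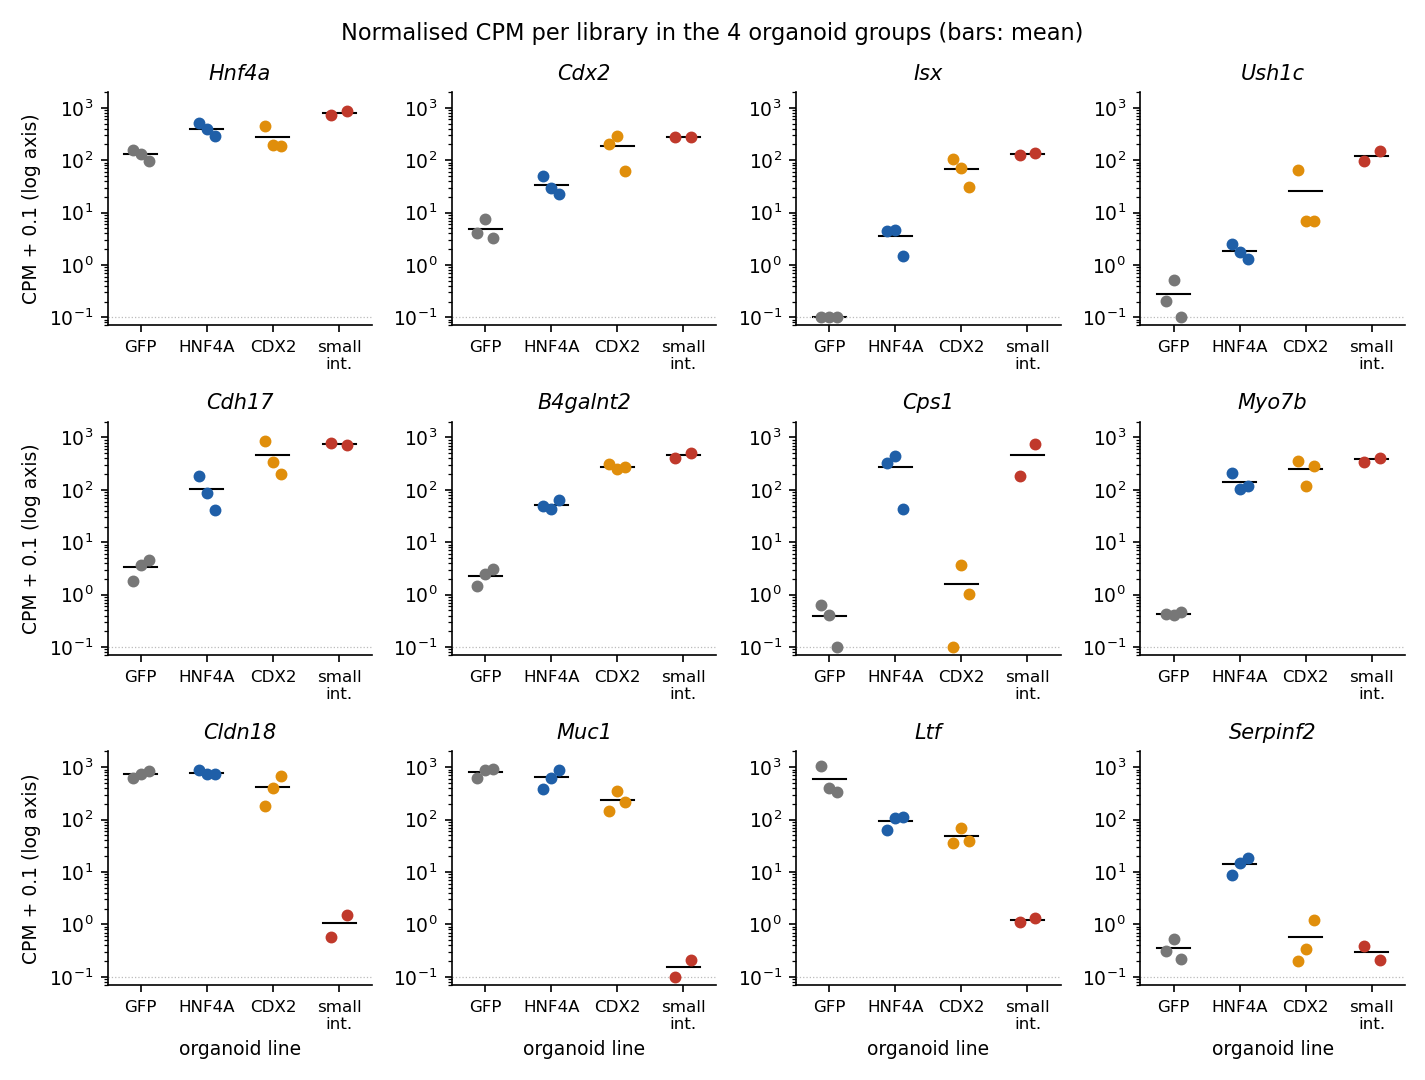
Normalised CPM plus 0.1 (log axis) of 12 genes in each library of the GFP, HNF4A and CDX2 gastric lines (3 each) and the small intestine (2), with bars at the mean. B4galnt2 climbs from 2.22 CPM in GFP lines to 459 CPM in the small intestine, Cps1 and Myo7b are near 0 in the GFP lines and far above them in the HNF4A lines, and Cldn18 and Muc1 are near 0 in the small intestine alone.

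Upstream sequence is shown for 4 genes that differ in their level in the HNF4A lines: Sis and Tm4sf4, which were near 0 in them, B4galnt2, which was between gastric and intestinal levels, and Mgam, for which no difference was called. Each is the 250 bases before the start used in the RefSeq promoter table, on the gene's own strand in build GRCm38.p6, and capitals mark the CDX core TTTATG or TTTATT on either strand. The Sis promoter is a textbook target of CDX2.
B4galnt2: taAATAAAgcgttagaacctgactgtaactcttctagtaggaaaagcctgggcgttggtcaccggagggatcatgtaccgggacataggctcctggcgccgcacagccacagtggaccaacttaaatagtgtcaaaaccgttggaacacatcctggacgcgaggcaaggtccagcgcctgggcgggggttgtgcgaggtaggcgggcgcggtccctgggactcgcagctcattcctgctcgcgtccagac
Sis: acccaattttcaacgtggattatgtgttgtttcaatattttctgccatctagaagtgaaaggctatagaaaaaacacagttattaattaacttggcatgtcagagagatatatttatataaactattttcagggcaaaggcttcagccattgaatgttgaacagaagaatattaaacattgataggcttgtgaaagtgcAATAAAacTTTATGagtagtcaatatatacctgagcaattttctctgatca
Tm4sf4: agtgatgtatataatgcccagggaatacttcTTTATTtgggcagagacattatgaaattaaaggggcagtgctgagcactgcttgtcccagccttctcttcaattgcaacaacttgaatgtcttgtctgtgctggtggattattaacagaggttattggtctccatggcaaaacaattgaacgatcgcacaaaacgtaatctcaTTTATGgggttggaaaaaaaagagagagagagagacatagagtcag
Mgam: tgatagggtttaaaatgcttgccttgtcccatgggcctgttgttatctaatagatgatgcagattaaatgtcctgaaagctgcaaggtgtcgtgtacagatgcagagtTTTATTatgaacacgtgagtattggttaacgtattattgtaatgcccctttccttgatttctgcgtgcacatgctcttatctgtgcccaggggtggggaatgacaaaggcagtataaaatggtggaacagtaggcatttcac
They lie at chr11:95914872-95915121 on the minus strand (B4galnt2), chr3:72967864-72968113 on the minus strand (Sis), chr3:57425160-57425409 on the plus strand (Tm4sf4) and chr6:40628581-40628830 on the plus strand (Mgam). The B4galnt2 stretch overlaps the RefSeq span of that gene, which reaches to base 95914960, so another start was used there than the outermost one. Sis and Tm4sf4 hold 2 matches each, and the nearest begins 43 bases before the start in Sis and 46 in Tm4sf4. Mgam and B4galnt2 hold 1 each, 142 and 248 bases before it. Such matches are common: 15.5% of the 12504 promoters of tested genes held one, against 14.6% of 693 promoters of genes called higher and 15% of 829 promoters of genes called lower. The HNF4 core CAAAGTCCA, searched on both strands, was in 0.416%, 0.433% and 0.121% of them, and in none of the 4 sequences shown. The 4 genes shown were picked by hand and all hold a CDX match, so they cannot show whether matches go with level. A match is a description of letters, not a bound site.

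HNF4A lines held some intestinal genes at a level from which the small intestine was not told apart. They are described here as the genes that were called higher in HNF4A than in GFP lines (18 of 12720, 0.142%, or 92 genes, 0.723%, with line number as a block), named after their values were seen. That contrast shares the HNF4A libraries with the present one, so each value stands on its own. Igsf23, an immunoglobulin family gene, read 108 and 151 CPM in the small intestine and 119, 120 and 105 CPM in the HNF4A lines, against 16.3, 37.0 and 25.3 CPM in the GFP lines. The difference between intestine and HNF4A lines was 0.17, with a 95% interval from -0.54 to 0.89. Pklr, the pyruvate kinase of liver and gut, read 90.5 and 148 CPM against 136, 110 and 115 CPM, with an interval from -0.66 to 0.63. These 2 intervals leave out a 2-fold gap in either direction. Cps1, the urea cycle enzyme that the gut uses for citrulline, read 183 and 737 CPM against 332, 450 and 43.5 CPM and was at 0.533, 0.319 and 0 CPM in the GFP lines. Its spread within both groups left an interval from -1.47 to 2.96, which covers gaps of over 2-fold in either direction.

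Myo7b, the motor of the tip link in microvilli, read 347 and 414 CPM in the small intestine and 211, 104 and 118 CPM in the HNF4A lines. It stood just past the threshold (1.40 ± 0.41, edgeR adjusted p = 0.0503) and without overlap, while the GFP lines held no more than 0.367 CPM. Ush1c, whose product binds this motor, was at no more than 2.44 CPM in the HNF4A lines, as given above. Clrn3, Tm4sf20 and Ckb, the brain-type creatine kinase, were not called either, with intervals from -0.50 to 2.44, from -0.60 to 2.72 and from -0.54 to 1.97. Hopx, a homeodomain protein of stem and absorptive cells, was higher in the small intestine, at 291 and 212 CPM against 82.7, 76.6 and 55.1 CPM (1.81 ± 0.26, edgeR adjusted p = 0.00428). Myb, a factor of crypt progenitors, read 47.5 and 58.6 CPM against 14.2, 15.1 and 13.6 CPM (1.89 ± 0.43, edgeR adjusted p = 0.0248). Both lay between 13.2 and 21.4 CPM (Hopx) or 1.07 and 1.81 CPM (Myb) in the GFP lines.

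Gastric genes were among those with the widest gaps, lower in the small intestine. Of 11 tested gastric transcription factors, 7 were lower in the small intestine and none higher, with a median difference of -1.83. Sox2 had no count in either small intestine library and read 49.4, 57.1 and 29.0 CPM in the HNF4A lines. That makes it at least 305-fold lower in the small intestine, counted against 3 counts over that group (edgeR adjusted p = 0.00323). Nkx6-3, a homeobox factor of the distal stomach, held 2 counts over both small intestine libraries, against 110, 66.7 and 67.7 CPM in the HNF4A lines. Pdx1, which is active in the antrum, duodenum and pancreas, read 6.33 and 21.0 CPM against 65.3, 40.9 and 41.2 CPM (-1.85 ± 0.44, edgeR adjusted p = 0.0281). Sox21, Foxq1, Foxa2 and Runx1 were lower by 1.65 to 1.86 on the log2 scale, as in Sox21 at 32.2 and 39.3 CPM against 145, 111 and 133 CPM. None of the 11 factors was called between HNF4A and GFP lines, where Sox2 stood at 82.9 ± 36.9 CPM and Nkx6-3 at 90.9 CPM. Without small intestine line 1, 2 of the 7 calls remained.

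Claudin 18, the stomach's tight junction protein, read 0.466 and 1.43 CPM in the small intestine and 878, 756 and 732 CPM in the HNF4A lines. The log2 difference for Cldn18 was -9.72 ± 0.78 (edgeR adjusted p = 0.000315), and the GFP lines stood at 738 ± 110 CPM (SD, n = 3), so that the HNF4A lines were not told apart from them (0.10 ± 0.42). Cldn18 lies at chr9:99690796-99717267. Muc1, a membrane mucin at chr3:89229056-89233381, held a single count in the small intestine and averaged 640 ± 255 CPM in the HNF4A lines (SD, n = 3), each of them far above it. Over the counts of both groups the ratio was 12439, with a 95% counting interval from 2232 to 491357, and Muc1 was called in 13 of 13 other settings. Cldn3, a claudin of the intestine, moved the opposite way, at 310 and 278 CPM against 67.6, 59.8 and 76.5 CPM (2.12 ± 0.38, edgeR adjusted p = 0.0123).

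Of 12 tested genes of gastric glands, 6 were lower in the small intestine and none higher, with a median difference of -5.75. Muc6, the mucin of neck and gland cells, read 0.0931 and 0.439 CPM against 228, 1842 and 4270 CPM, so the HNF4A lines spanned a wide range and all lay far above the intestine. Aqp5, a water channel of antral glands, read 0.559 and 3.84 CPM against 1123, 1179 and 679 CPM. Pgc, pepsinogen C, read 0.559 and 3.40 CPM against 150, 187 and 562 CPM, and Tff2, the trefoil peptide stored with Muc6, held 1 count in the small intestine against 30.8, 12.1 and 7.48 CPM. Atp4a, the acid pump, read at most 2.44 CPM in any of the 5 libraries. Gif, intrinsic factor, had no count in the small intestine, ran from 0.581 to 406 CPM in the HNF4A lines and was not called (edgeR adjusted p = 0.112). Without small intestine line 1 or HNF4A line 2, 1 of the 6 calls was left.

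Pit mucous genes lay below the HNF4A lines in both small intestine libraries for 10 of 17 tested, beside 24.3% of all genes. Only Muc1 and Cldn18 were called, beside 6.64% of all genes called lower. Gkn3, a gastrokine of the glands, read 0 and 49.1 CPM against 589, 1740 and 4702 CPM (edgeR adjusted p = 0.0584). Ctse, cathepsin E, and Vsig1, a junction protein of the stomach, were at 55.6 and 52.1 CPM in small intestine line 2 and at no more than 0.745 CPM in line 1. Without small intestine line 2, the pit list held 8 lower calls rather than 2. Muc5ac, the surface mucin, had no count in the small intestine and read 31.1, 1.25 and 0.680 CPM in the HNF4A lines, and was not called (edgeR adjusted p = 0.0888).

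**Figure D4:**
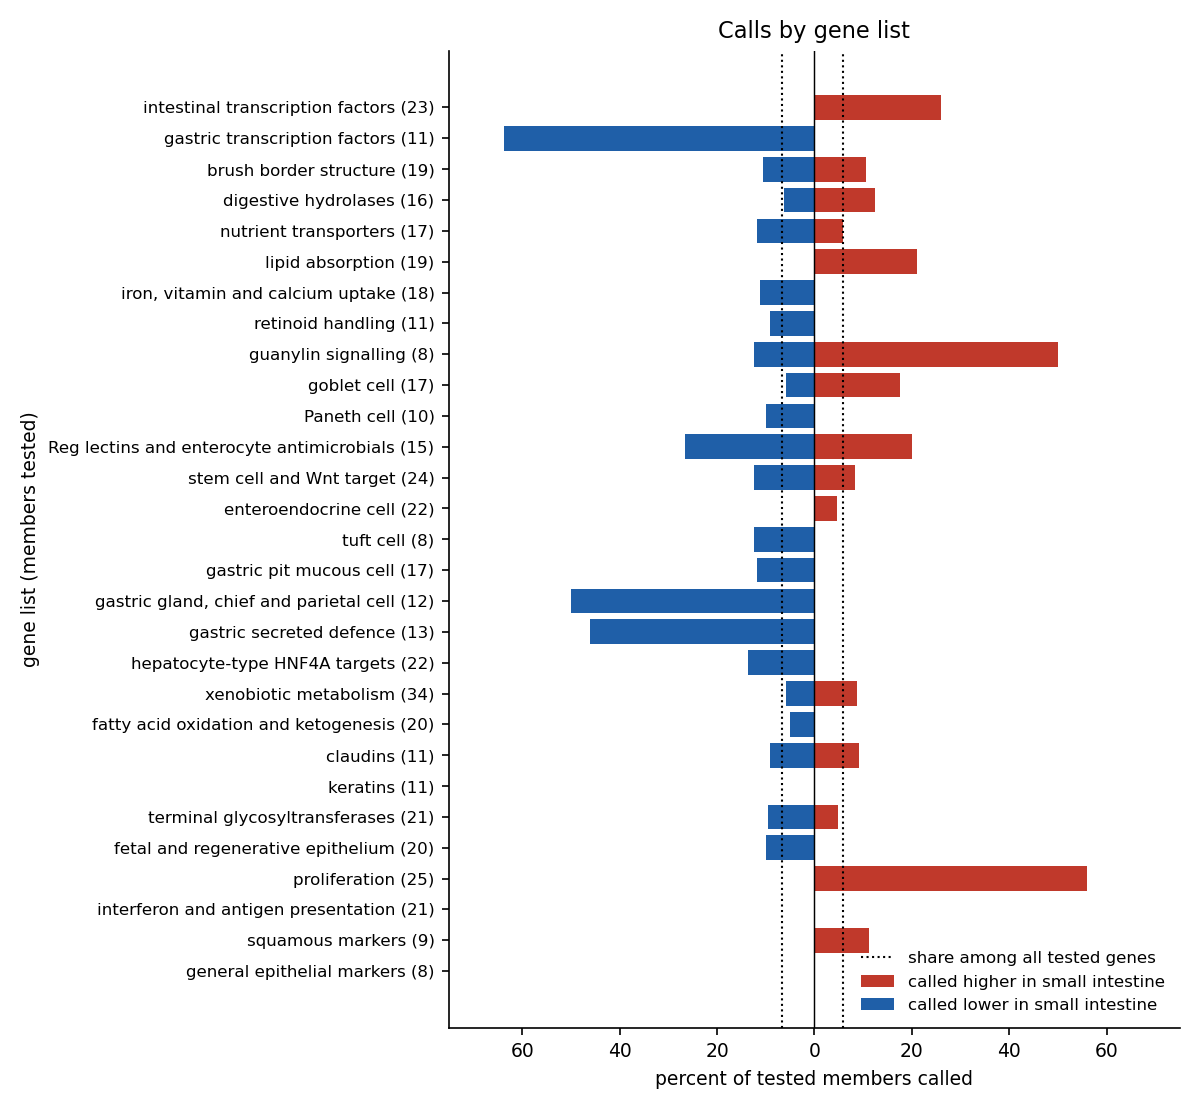
Percent of the tested members called in each gene list with at least 8 tested, as higher (right) or lower (left) in the small intestine, with the number tested in brackets and dotted lines at the shares among all tested genes, 5.83% and 6.64%. Gastric factors, gland genes and secreted defence genes reach farthest to the left, and proliferation and guanylin genes farthest to the right.

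Secreted proteins of mucosal defence were lower in the small intestine at 6 of 13 tested genes and higher at none, with a median difference of -5.09. Ltf, the iron-binding lactoferrin, read 1.02 and 1.21 CPM against 64.5, 105 and 110 CPM (-6.37 ± 0.69, edgeR adjusted p = 0.00147). The GFP lines held 589 ± 386 CPM of Ltf (SD, n = 3), with a difference of -2.66 ± 0.45 between HNF4A and GFP lines that was not called (edgeR adjusted p = 0.0657). Bpifb1, a lipid-binding airway and stomach protein, had no count in the small intestine and 13.4, 53.7 and 9.11 CPM in the HNF4A lines. Cxcl17, a mucosal chemokine, held 1 count in the small intestine, against 42.6, 51.1 and 126 CPM. C3, the central complement protein, read 0.931 and 1.97 CPM against 27.8, 46.9 and 105 CPM. For these 4 genes the groups did not overlap, and Ltf was called in 13 of 13 other settings. Without small intestine line 1, 2 of the 6 calls in the list remained.

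Trf, the serum iron carrier transferrin, was among the most abundant of the genes called lower. It read 1.49 and 2.41 CPM in the small intestine and 1682, 1956 and 1686 CPM in the HNF4A lines, and 3620 ± 2094 CPM in the GFP lines (SD, n = 3). Spp1, osteopontin, read 0 and 6.69 CPM against 1785, 1946 and 1992 CPM, and Fut2, the secretor fucosyltransferase, 8.38 and 9.21 CPM against 96.4, 111 and 106 CPM (-3.57 ± 0.28, edgeR adjusted p = 0.000277). Lrg1, an acute-phase glycoprotein, held 1 count in the small intestine against 78.5, 132 and 125 CPM. Prom1, a membrane protein of progenitors, read 214 and 583 CPM against 1649, 2302 and 2450 CPM. Notum, a secreted enzyme that switches off Wnt ligands, read 1.12 and 0.658 CPM against 14.7, 26.4 and 31.0 CPM (-4.72 ± 0.59, edgeR adjusted p = 0.00286). Lgr5, the Wnt-dependent stem cell receptor, was not called, at 76.8 and 103 CPM against 67.8, 197 and 241 CPM. Sox9, a crypt and gland factor, was lower, at 118 and 156 CPM against 287, 313 and 551 CPM. In all, 2 of 24 tested stem cell and Wnt genes were higher and 3 lower, beside 5.83% and 6.64% of all genes.

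Some genes, 3 of them picked after their values were seen (Serpinf2, Pipox and Cfb), were higher in the HNF4A lines than in both the small intestine and the GFP lines. Serpinf2, the plasmin inhibitor made by liver, read 0.279 and 0.110 CPM in the small intestine, 8.59, 14.6 and 18.4 CPM in the HNF4A lines, and 0.213, 0.425 and 0.122 CPM in the GFP lines. The small intestine lay below the HNF4A lines by -6.02 ± 1.01 (edgeR adjusted p = 0.00913), and HNF4A lay above GFP by 5.67 ± 0.83 (edgeR adjusted p = 0.0368). Pipox, an enzyme that degrades pipecolic acid and sarcosine, and Cyp2d10, a cytochrome P450 of the liver, had the same order of groups. They read 14.4, 21.7 and 11.8 CPM and 4.06, 7.47 and 7.07 CPM in the HNF4A lines, and at most 1.10 and 0.219 CPM in the small intestine. Cfb, complement factor B, read 64.5 and 81.1 CPM in the small intestine and 168, 159 and 206 CPM in the HNF4A lines, a mild gap of -1.29 ± 0.33 (edgeR adjusted p = 0.0335). The GFP lines held 13.0, 18.0 and 19.5 CPM of Cfb, below the HNF4A lines by 3.40 ± 0.31 (edgeR adjusted p = 0.00233).

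The list of hepatocyte-type HNF4A targets had 3 of 22 tested genes lower in the small intestine, beside 6.64% of all genes, and none higher. Without HNF4A line 2, 2 of the 3 calls were left. Ttr, the thyroid hormone carrier transthyretin, read 0.745 and 2.96 CPM in the small intestine and 25.8, 20.4 and 22.4 CPM in the HNF4A lines (-3.63 ± 0.73, edgeR adjusted p = 0.0176). In the GFP lines Ttr stood at 1.95 ± 1.42 CPM (SD, n = 3). Rbp4, the retinol carrier, read 1.40 and 1.21 CPM against 7.78, 13.2 and 22.2 CPM, with 17.0 CPM in the GFP lines. Trf was the third of the 3, and averaged 1774 CPM in the HNF4A lines and 3620 CPM in the GFP lines. Alb, albumin, was not called, at 0.186 and 2.52 CPM against 27.3, 16.1 and 0 CPM, with HNF4A line 3 at 0.

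Of 15 tested Reg lectins and other enterocyte antimicrobials, 3 were higher and 4 lower, beside 5.83% and 6.64% of all genes. The calls fell to 1 and 1 without small intestine line 1. Reg lectins are secreted antibacterial proteins, of which 1 was higher and 3 were lower. Reg3g read 2.70 and 3.51 CPM in the small intestine and 605, 500 and 414 CPM in the HNF4A lines (-7.35 ± 0.62, edgeR adjusted p = 0.000315), and was called in 13 of 13 other settings. Reg3b read 1.02 and 0.439 CPM against 59.6, 49.6 and 129 CPM, and Reg1 read 0.186 and 3.40 CPM against 70.6, 47.5 and 20.3 CPM. Reg3g stood at 162 ± 70.6 CPM in the GFP lines (SD, n = 3), and the difference between HNF4A and GFP lines was not called (1.64 ± 0.39, edgeR adjusted p = 0.208). Reg4, a marker of intestinal secretory cells, was the reverse, at 10.1 and 93.1 CPM against 0, 0 and 2.58 CPM. Naip1, a sensor of bacterial secretion systems, read 53.3 and 222 CPM against 7.90, 6.00 and 2.31 CPM, and Nos2, the inducible nitric oxide synthase, 15.6 and 6.36 CPM against 0.116, 0 and 0.272 CPM. The other lower call was Duoxa2, which matures an oxidase of the gut lining, at 1.12 and 5.81 CPM against 54.2, 49.1 and 12.9 CPM. Reg, Naip, Cyp2d and Ugt1a genes belong to families with close copies, so their counts are uncertain where reads could be shared.

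Detoxifying enzymes showed no common direction: of 34 tested, 3 were higher and 2 lower in the small intestine, near the background shares. Abcc2, an apical exporter of conjugates, read 260 and 185 CPM against 14.1, 13.7 and 0.544 CPM (4.55 ± 1.24, edgeR adjusted p = 0.0419). Ugt1a7c, a glucuronosyltransferase, read 58.7 and 115 CPM against 19.6, 5.09 and 6.53 CPM. Adh1, an alcohol dehydrogenase, was lower, at 72.9 and 93.6 CPM against 176, 251 and 199 CPM. In the list of iron, vitamin and calcium uptake, 2 of 18 were lower, beside 6.64% of all genes. Cybrd1, the ferric reductase of the brush border, read 90.4 and 375 CPM against 1556, 1997 and 1358 CPM, and Tcn2, a vitamin B12 carrier, 26.3 and 51.1 CPM against 95.5, 88.2 and 76.0 CPM. In retinoid handling, 1 of 11 was lower, beside the same 6.64%. This was Aldh1a1, which makes retinoic acid, at 49.2 and 55.7 CPM against 197, 135 and 166 CPM. The uptake and retinoid calls were lost without small intestine line 1, and of the detoxifying enzymes 1 higher call was left. Of the keratins (11 tested) and the interferon and antigen presentation genes (21 tested), none was called by edgeR. By DESeq2, no keratin and 1 of the interferon genes passed.

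Proliferation genes were higher in the small intestine: 14 of 25 tested passed, beside 5.83% of all genes, none was lower, and the median difference was 1.38. In 24 of the 25, both small intestine libraries lay above all 3 HNF4A libraries, as they did at 25.5% of all genes. Top2a, the topoisomerase of dividing cells, read 681 and 477 CPM against 198, 235 and 235 CPM (1.38 ± 0.35, edgeR adjusted p = 0.0328). Ccna2, cyclin A2, read 300 and 203 CPM against 79.9, 94.7 and 58.6 CPM, and Mcm5, a subunit of the replicative helicase, 225 and 142 CPM against 59.0, 68.8 and 77.4 CPM. Mki67, the usual label of cycling cells, read 481 and 502 CPM against 221, 330 and 263 CPM and was not called (0.86 ± 0.34, edgeR adjusted p = 0.119). The exception to the order was Plk1, a mitotic kinase, at 153 and 123 CPM against 73.2, 101 and 134 CPM. Small intestine line 1 was above line 2 at each of these genes but Mki67. The 14 calls fell to 0 without small intestine line 1 or without HNF4A line 2, to 3 without HNF4A line 1 and to 4 without HNF4A line 3, and stood at 11 without small intestine line 2. The summed level of the list was 5436 and 3779 CPM in the small intestine and 1803, 2046 and 1829 CPM in the HNF4A lines.

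**Figure D5:**
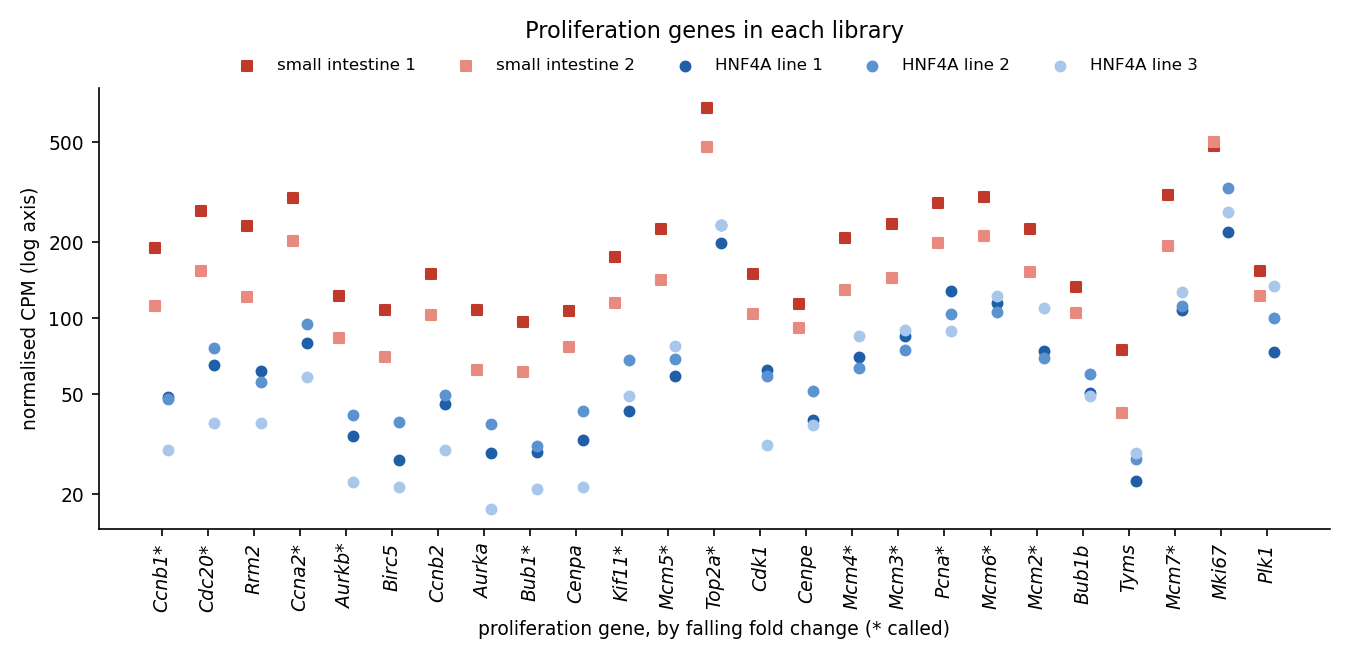
Normalised CPM (log axis) of the 25 proliferation genes in each small intestine library (squares) and HNF4A library (circles), ordered by fold change, with an asterisk at called genes. The squares lie above the circles at every gene but Plk1, at the right end, where 123 CPM in small intestine line 2 is below 134 CPM in HNF4A line 3.

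Hox genes, which mark position along the gut, were nearly silent in the HNF4A lines, as in the GFP and CDX2 lines. Of 39 Hox genes, 15 had counts in the small intestine and none in the HNF4A lines, 3 had counts in both, 1 had counts only in the HNF4A lines, and 20 were at 0 in all 5. Summed over the clusters, the counts were 118 and 109 in the small intestine and 3, 4 and 5 in the HNF4A lines. Only Hoxa3 passed the filter, at 2.14 and 3.73 CPM against 0, 0.226 and 0 CPM (4.98 ± 1.26, edgeR adjusted p = 0.0412), and it kept its call in 6 of 13 other settings.

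Markers of other cell types were examined by list. Pan-epithelial Epcam read 894 and 1323 CPM against 1166, 1303 and 1034 CPM, and none of 8 tested epithelial genes was called by edgeR or DESeq2. Only 5 of 14 fibroblast, 4 of 17 immune and 4 of 10 endothelial markers passed the filter. Collagen genes Col1a1 and Col1a2 stayed at or under 2.94 CPM in all 5 libraries. The 1 call among these 13 genes was Fn1, fibronectin, at 0.931 and 27 CPM in the small intestine and 512, 762 and 1593 CPM in the HNF4A lines. Summed fibroblast markers ran from 6.89 to 31.5 CPM in the small intestine and from 518 to 1610 CPM in the HNF4A lines, where Fn1 alone gave 512, 762 and 1593 CPM. Summed immune markers ran from 16.2 to 19.2 CPM in the small intestine and from 18.9 to 87.4 CPM in the HNF4A lines, and endothelial markers from 14.6 to 17.7 and from 15.2 to 30.8 CPM. The leukocyte marker Ptprc read at most 0.566 CPM and the endothelial marker Pecam1 at most 0.372 CPM. Summed squamous markers stood at 204 and 615 CPM in the small intestine and at 343, 119 and 80.9 CPM in the HNF4A lines, most of it from Krt4 and Sprr1a, which overlapped between groups. Dsg3, a desmoglein of squamous epithelium, was higher in the small intestine, at 5.40 and 19.4 CPM against 0.697, 0.792 and 0.272 CPM. Cela1, an elastase of pancreatic acini, was lower, at 2.61 and 18.4 CPM against 43.9, 46.6 and 79.0 CPM. Their part in the differences above was not tested.

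The enteroendocrine and tuft cell lists held 1 call each, beside 5.83% of all tested genes called higher and 6.64% called lower. Of 22 tested enteroendocrine genes 1 was called, Sct, which encodes the hormone secretin, at 3.63 and 6.25 CPM against 0.348, 0.226 and 0.408 CPM. The more abundant Cpe was not called, at 6.52 and 34.9 CPM against 66.4, 82.2 and 81.1 CPM. Chgb was not called either, at 13.5 and 44.2 CPM against 8.59, 11.9 and 56.9 CPM. Of 8 tuft cell genes, Dclk1, a kinase of tuft cells, was lower, at 0.0931 and 1.86 CPM against 19.3, 43.4 and 158 CPM. Among 10 tested Paneth cell genes, only Sox9 was called.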

How the data were processed

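RNA was poly-A selected and sequenced as paired reads, per the labels' protocols. The authors deposited a table of raw read counts per gene symbol. STAR, Bowtie2 and Cell Ranger and the builds hg19 and mm10 are named in the submitters' processing notes, with no role. How reads were assigned to genes is not stated there.

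Counts were analysed with edgeR 4.0.16 in R 4.3.3: genes were kept by filterByExpr (minimum count 10, total 15) and normalised by TMM. A robust quasi-likelihood fit over 11 libraries in 4 groups (small intestine, HNF4A, GFP, CDX2) shared 1 estimate of the spread. The contrast was small intestine minus HNF4A lines, with Benjamini-Hochberg adjustment over 12720 genes and calls under 0.05. Fold changes use edgeR's prior count of 0.125. Genes with 0 counts in a group are given as bounds against 3 counts over that group. The procedure was also run on simulated counts without line effects, which cannot show how the calls here depend on single lines.

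Line numbers paired the gastric lines: deviations of same-numbered lines correlated at 0.391 to 0.820 across genes. They did not pair the small intestine with the HNF4A lines (-0.033 and 0.048), so the contrast is unpaired. Replicates differed beyond counting noise and were all kept.

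The comparison and the gene lists were chosen with earlier results of these data known. Named were 11 set genes, the 12 largest changes per direction above 20 CPM, and in each list up to 4 called genes per direction (mean of at least 5 CPM) and the 3 most abundant uncalled ones, plus markers of other cell types with 1 CPM in any library. The other genes named in the report, such as Vdr, Myo7b, Top2a and Sct, were picked after their values were seen. Alternatives changed the scaling, the tool (DESeq2 1.42.0, limma-voom 3.58.1), the filter, the libraries fitted, the block and the threshold, and left out each library in turn. Promoters are from RefSeq (GRCm38.p6), which held 9767 of the 12720 tested symbols.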

Additional observations from a re-analysis of the deposited data

How the results depend on the processing

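Calls numbered 1585 (741 higher and 844 lower in the small intestine, 587 of at least 4-fold). With DESeq2 they numbered 2791 (1238 higher, 1553 lower, 913 of at least 4-fold), with only the 5 libraries fitted 559 (266, 293 and 301), and at an adjusted p under 0.01 they numbered 194 (42, 152 and 149). Leaving out each library in turn gave 142 to 1423 calls, 29 to 649 higher, 113 to 774 lower and 118 to 602 of at least 4-fold, and the fewest came without small intestine line 1, where the other line is assumed to vary like the other groups. The same line number does not pair these groups, and with it as a replicate block calls numbered 3061 (1551 higher, 1510 lower). The cause of these shifts was not tested beyond the fewer libraries or stricter threshold. Other scalings, limma-voom and other filters gave 1381 to 1610 calls. Of 92 named genes that were called, 18 kept the call in every setting that gave them an adjusted p. That includes the stricter threshold, and no named gene reversed. With 2 libraries against 3, an uncalled gene is not shown to be equal.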

Other observations

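Several families of amino acid, nucleotide and DNA replication genes held calls in 1 direction. They were listed whole after their values were seen and are described without a test, beside 5.83% of all tested genes called higher and 25.5% with both small intestine libraries above. Of 20 cytosolic tRNA synthetases, which load amino acids onto tRNA, 12 were called higher and none lower, and in 18 both small intestine libraries lay above all 3 HNF4A libraries. Gars, the glycine enzyme, read 584 and 362 CPM in the small intestine and 211, 174 and 176 CPM in the HNF4A lines. Of 17 mitochondrial synthetases, 2 were called higher and none lower. Among 25 enzymes of serine, glycine and one-carbon metabolism, 11 were higher and none lower: Shmt2, the mitochondrial enzyme that splits serine, read 385 and 233 CPM against 93.3, 108 and 90.3 CPM, and Mthfd2, which acts after it, 199 and 105 CPM against 35.7, 54.3 and 38.6 CPM. Of 43 origin, helicase and fork genes of DNA replication, 28 were higher and none lower, with Mcm10 at 76.3 and 63.4 CPM against 25.1, 24 and 19.0 CPM. Small intestine line 1 was the higher of the pair at each of these 4 genes. Mcm5 belongs both to the replication family and to the proliferation list above, whose 14 calls fell to 0 without HNF4A line 2. The family calls were not counted with single libraries left out. Over all genes, calls higher in the small intestine fell from 741 to 85 without HNF4A line 2.

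Stomach antrum organoids overexpressing HNF4A, the wild-type controls of the series' enhancer deletion experiment, gave 3 further libraries that entered no test. Their levels are CPM by library total, without further scaling. Cdx2 stood at 33.0 ± 20.8 CPM, Isx at 5.23 ± 5.10, Ush1c at 1.12 ± 0.949, Sis at 1.25 ± 1.08 and B4galnt2 at 47.8 ± 29.6 (SD, n = 3 each). Cldn18 stood at 730 ± 179 CPM, Muc1 at 795 ± 157, Sox2 at 64.1 ± 23.4 and Nkx6-3 at 76.5 ± 10.3 CPM. Cps1 reached 366 ± 156 CPM and Serpinf2 22.4 ± 10.5 CPM.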
